A study of Homo sapiens with 6 samples.

Results

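The genes described here build ribosomes in the nucleolus: subunits and initiation factors of RNA polymerase I, the enzyme that transcribes ribosomal DNA, and proteins that modify, cleave and assemble the ribosomal RNA (rRNA). They are 44 genes chosen by symbol from a list, all of which were found among the 58299 genes of the count table and all of which passed the filter that left 15575 genes for testing. Expression was measured by sequencing polyadenylated RNA of AC16, a human line that was derived from adult ventricular cardiomyocytes by fusion with a transformed fibroblast line. The 3 control libraries came from cells kept in 0.1% DMSO, the solvent, for 72 h. The 3 treated libraries came from cells given 100 nM CDDO-Me for 24 h and then 100 nM doxorubicin for 48 h, 72 h in all. CDDO-Me is a triterpenoid that releases the transcription factor NRF2 from KEAP1, and doxorubicin is an anthracycline that intercalates into DNA and traps topoisomerase II. The labels do not say whether CDDO-Me remained on the cells with doxorubicin, and cells given a single drug were not analysed here, so no difference can be assigned to either drug.

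In the nucleolus RNA polymerase I, brought to ribosomal DNA by UBTF, the selectivity factor SL1 and RRN3, makes a long precursor rRNA. Small nucleolar ribonucleoproteins (snoRNPs) guide its methylation and pseudouridylation, the small-subunit processome and a set of large-subunit factors fold and cut it, and the particles are exported and finished in the cytoplasm. Growth signals and MYC raise the genes of this pathway, and anthracyclines are known to disturb rRNA synthesis. Poly(A) selection reads the messenger RNAs of the pathway and gives no measure of rRNA itself.

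Levels are CPM, a count scaled to the TMM-normalised size of its library, given per library or as mean ± SD (n = 3). The log2 change is the treated over the control level, with its standard error (SE). A gene was called at an edgeR quasi-likelihood p below 0.05 after Benjamini-Hochberg adjustment over all tested genes. Nothing in the labels says that the libraries came from separate cultures, so the p-values refer to the variation among these libraries alone, and that may be technical. In bulk RNA, fewer cells of a type and less RNA per cell cannot be told apart.

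Libraries held 17150259 to 20193957 counts. The heme oxygenase gene HMOX1, the quinone reductase gene NQO1, both NRF2 targets, and the cell cycle inhibitor gene CDKN1A rose by 4.33, 2.13 and 4.30 on the log2 scale. Of 15 cardiomyocyte markers, 9 had 0 counts in every control, among them the myosin genes MYH6 and MYH7, and TNNI3 had 0 in all 6 libraries; the 15 markers summed to 26.8 to 29.3 CPM in controls and 26.3 to 31.8 CPM in treated libraries. All 9 fibroblast markers were detected, at a summed 24434 to 26922 CPM in controls and 13140 to 13968 CPM in treated libraries. The summed endothelial markers stood at 21.6 to 24.4 and 11.4 to 12.1 CPM, and the leukocyte markers at 1.68 to 3.02 and 4.91 to 5.86 CPM. Single markers did not all follow these sums. Of 4 tested endothelial markers 2 were called higher and 1 lower. Of 3 tested cardiomyocyte markers 1 was called higher and 2 lower, with log2 changes from -3.85 to 0.47. Of 9 fibroblast markers 8 were called lower, and of 3 tested leukocyte markers 2 were called higher. The part of these shifts in the results was not tested.

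Most genes of the nucleolar programme were lower in treated cells, by modest amounts. Of the 44 genes, 28 fell, 6 rose and 10 were not called, where 63.5% of all tested genes were called in either direction. The falls were 63.6% of the members, where 31.2% of all tested genes were called lower, and the rises 13.6%, where 32.3% of all tested genes were called higher. Most members were well expressed, so they were also set beside the 9454 protein-coding genes of at least 10 CPM, a comparison added after the data were seen. Of those, 42.5% were called lower, 31.8% higher and 74.4% in either direction. The median log2 change of the members was -0.21, against 0.02 over all tested genes and -0.06 over those expressed coding genes. When libraries were scaled by their total counts alone, the median over all genes moved to 0.15 and that of the members to -0.09, and 20 members were then called lower and 10 higher. Directions given for single genes hold under TMM scaling.

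No member changed by as much as 2-fold, a size that 10.9% of all tested genes reached upward and 4.62% downward, and 4.5% and 4.19% of the expressed coding genes. Against a 1.5-fold change, tested with glmTreat, 0 members were called in either direction, where 11.9% of tested genes were called higher and 7.33% lower, and 7.83% and 9.1% of the expressed coding genes. Against no change the count at an adjusted p below 0.05 was 34, and DESeq2 called 33. The log2 change was smaller than 0.5 in size in 39 of 44 members. The groups nevertheless stood apart: the 3 treated libraries lay wholly below the 3 controls in 28 members and wholly above in 6, where 32.6% and 34.1% of all tested genes did so, and 43.4% and 32.7% of the expressed coding genes. Of the members called lower, MYBBP1A was the exception whose groups overlapped, and UTP4 was separated without being called. The lowest treated level relative to control was 61.3%, in NOP16, and 12 members stood at 75% of control or less.

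**Figure D1:**
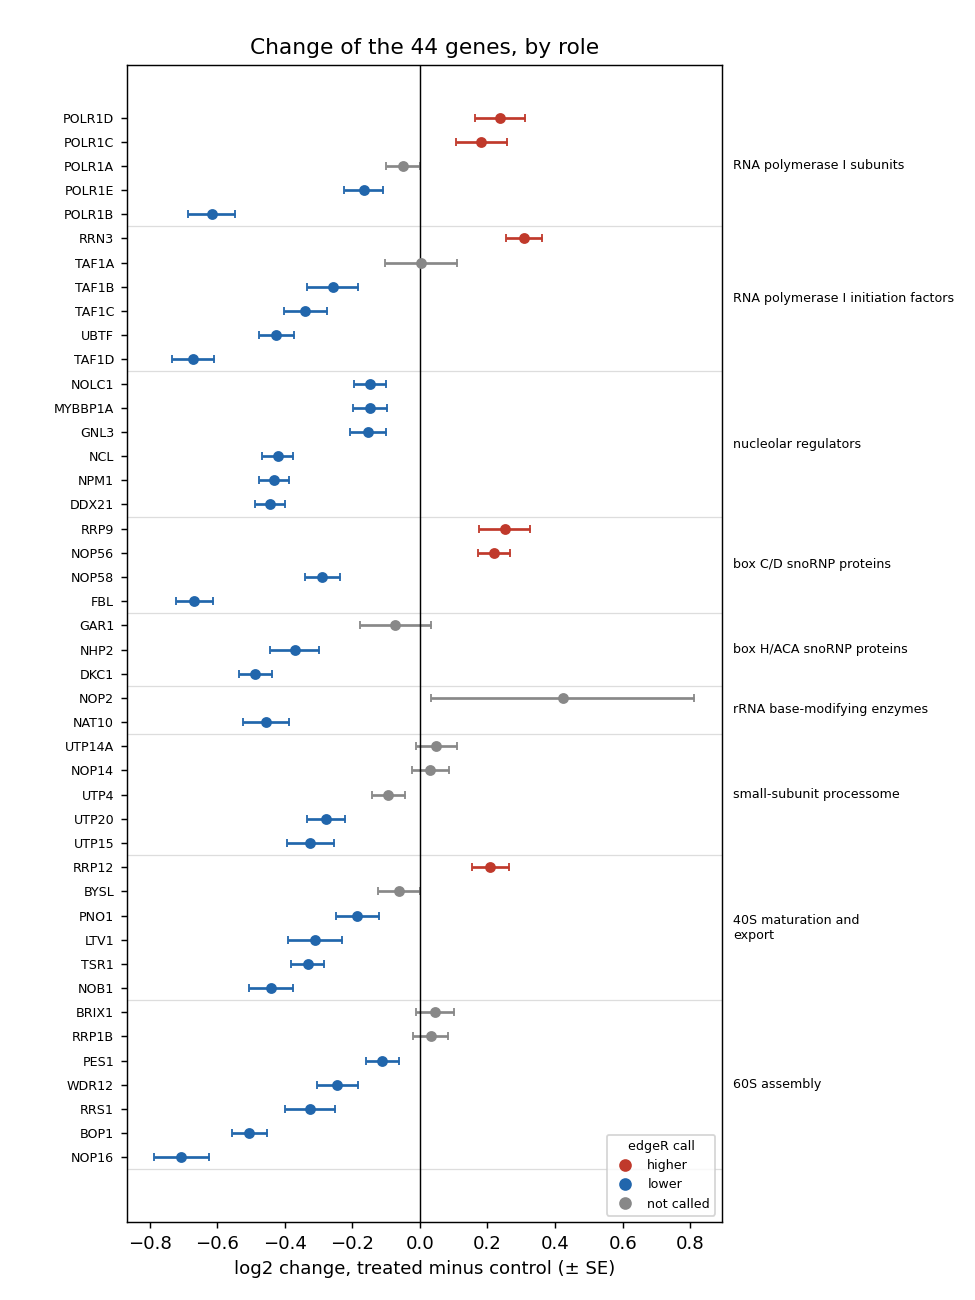
Log2 change (treated minus control, points) with its SE (bars) for the 44 genes, grouped by role and coloured by the edgeR call. Of these genes 28 are called lower, 6 higher and 10 not called, and the points run from -0.71 (NOP16) to 0.42 (NOP2, whose SE is 0.39).

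The members' summed level was 6741, 6654 and 6830 CPM in the controls and 5743, 5522 and 5533 CPM in the treated libraries. The mean fell to 83.1% of control (6742 ± 88.0 to 5599 ± 125 CPM). NPM1, NCL and DDX21 made up 40.8% of the control sum, so this sum describes mainly those 3 genes.

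**Figure D2:**
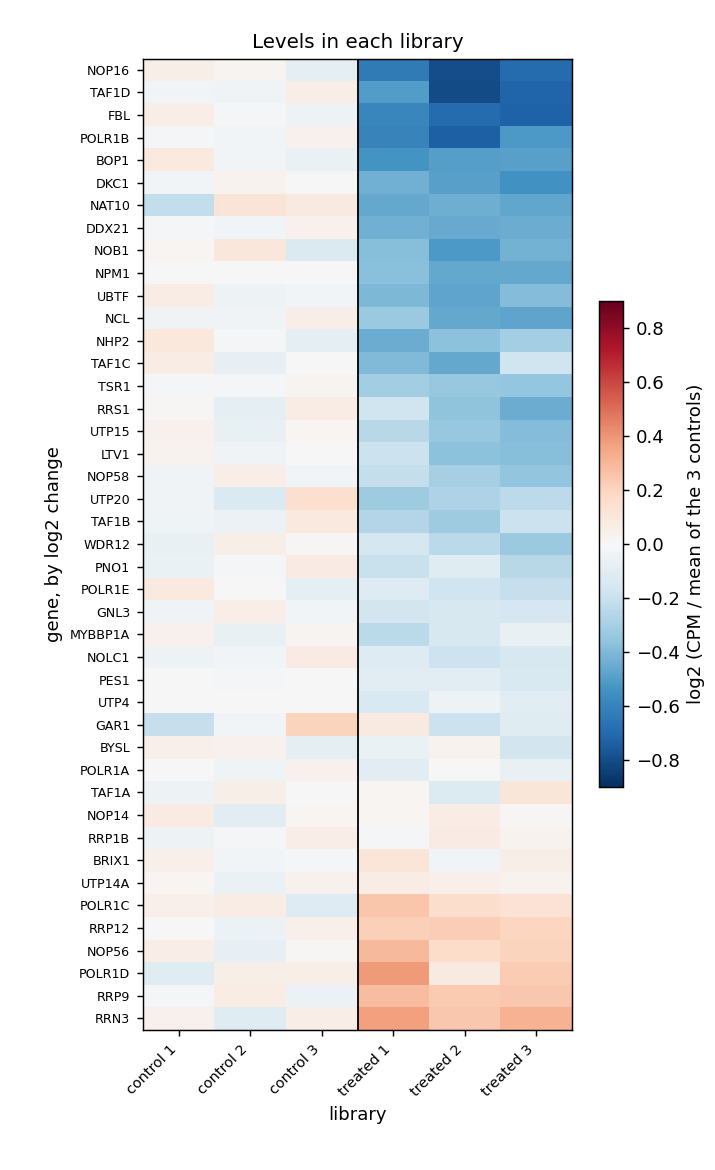
Heat map of the level of each gene (rows, ordered by log2 change) in each of the 6 libraries (columns), as log2 of the CPM over the mean of the 3 controls; NOP2, with 9 to 24 counts per library, is left out. The 3 treated columns are blue from NOP16 down to UTP4 and red in the 6 genes called higher at the bottom.

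The promoters of these genes were read from the RefSeq promoter table (GRCh38.p14) and searched for short motifs; no difference from other promoters was tested. Entries were found for 37 of the 44 members; those without one were BOP1, NOLC1, NOP58, POLR1E, RRP12, RRP1B and RRS1. In the 250 bases before the start, the members had a median of 21 CpG dinucleotides, against 22 in the promoters of 7865 expressed coding genes and 11 in all 27305 promoters. The letters CCGGAAG, the core that ETS-family factors recognise, stood on either strand in 12 of 37 members (32.4%), in 18.0% of the expressed coding promoters and in 8.82% of all promoters. Of the 23 members called lower that had an entry, 7 held it, as did 2 of 5 called higher and 3 of 9 not called. The E-box CACGTG, the site of MYC and MAX, stood in 4 of 37 (10.8%), in 9.35% of expressed coding promoters and in 6.49% of all promoters. Its holders were NAT10, UTP20, UTP4 and UTP14A. A spaced pattern, TGA and GC with 5 free bases between them, was in 35.1% of members, in 35.7% of expressed coding promoters and in 36.0% of all promoters. Its spacing is not that of the antioxidant response element, which NRF2 binds, so the presence of that element was not tested. The other motifs searched on both strands were GGGCGG (64.9% of members, 70.0% of expressed coding and 42.3% of all promoters), CCAAT (35.1%, 35.6% and 33.0%), TATAAA (5.41%, 4.65% and 11.1%) and the NRF1 motif (8.11%, 2.24% and 1.13%). These motifs may overlap each other. A match is a stretch of letters and not a measured binding site.

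Shown are the promoters of the 4 members with CCGGAAG that fell most, of RRP9, the one with that motif that rose most, and of NAT10, the member with an E-box that fell most, to let the position of the motif be compared. Capitals mark CCGGAAG or its reverse complement, and in NAT10 the E-box. Each promoter runs 5′ to 3′ in the gene's direction and ends at the base before the start. The start is that of the RefSeq entry, and in the genes shown it lay inside the span of the counted gene. The regions of NOP16 and TAF1D lay wholly within that span. The regions are chr5:176388599-176388848 on the minus strand for NOP16, chr11:93741496-93741745 (minus) for TAF1D, chr19:39846380-39846629 (minus) for FBL, chr2:112541786-112542035 (plus) for POLR1B, chr3:51941905-51942154 (minus) for RRP9 and chr11:34105379-34105628 (plus) for NAT10.
NOP16: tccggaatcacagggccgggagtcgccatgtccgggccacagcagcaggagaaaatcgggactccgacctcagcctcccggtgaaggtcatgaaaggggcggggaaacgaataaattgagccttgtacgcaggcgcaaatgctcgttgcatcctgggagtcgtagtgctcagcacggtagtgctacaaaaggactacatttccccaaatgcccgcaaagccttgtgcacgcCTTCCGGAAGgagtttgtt
TAF1D: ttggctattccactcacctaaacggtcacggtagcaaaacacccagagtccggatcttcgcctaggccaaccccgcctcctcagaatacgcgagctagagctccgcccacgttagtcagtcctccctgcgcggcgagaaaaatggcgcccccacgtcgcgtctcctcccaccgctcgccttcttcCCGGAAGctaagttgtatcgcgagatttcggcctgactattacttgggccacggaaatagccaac
FBL: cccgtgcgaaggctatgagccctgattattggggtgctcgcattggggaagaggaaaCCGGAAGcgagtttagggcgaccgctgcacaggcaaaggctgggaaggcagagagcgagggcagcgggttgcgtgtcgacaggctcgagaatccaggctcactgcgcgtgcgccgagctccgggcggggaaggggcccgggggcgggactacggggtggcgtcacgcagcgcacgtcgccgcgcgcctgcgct
POLR1B: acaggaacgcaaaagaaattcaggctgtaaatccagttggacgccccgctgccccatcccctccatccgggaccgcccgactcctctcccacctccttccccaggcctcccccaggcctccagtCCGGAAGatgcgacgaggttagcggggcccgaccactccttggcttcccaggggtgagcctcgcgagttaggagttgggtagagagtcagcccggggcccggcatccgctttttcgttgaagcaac
RRP9: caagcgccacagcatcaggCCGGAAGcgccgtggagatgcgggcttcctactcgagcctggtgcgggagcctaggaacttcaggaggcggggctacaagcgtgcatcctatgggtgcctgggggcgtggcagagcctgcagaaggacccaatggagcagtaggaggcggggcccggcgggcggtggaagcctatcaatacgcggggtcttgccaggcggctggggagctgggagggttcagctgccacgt
NAT10: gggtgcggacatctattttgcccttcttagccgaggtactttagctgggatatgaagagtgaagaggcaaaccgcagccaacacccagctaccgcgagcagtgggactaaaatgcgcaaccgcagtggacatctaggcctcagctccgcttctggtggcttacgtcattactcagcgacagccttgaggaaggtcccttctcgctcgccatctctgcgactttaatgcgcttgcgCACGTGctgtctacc
In NOP16 the motif was found on both strands, as overlapping matches that begin 19 and 16 bases before the start. The match began 65 bases before the start in TAF1D, 126 in POLR1B, 193 in FBL and 231 in RRP9. The E-box of NAT10 began 15 bases before the start.

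The subunit genes of RNA polymerase I moved in both directions. Of the 5, 2 fell (40%), 2 rose (40%) and 1 was not called, where 42.5% of expressed coding genes were called lower and 31.8% higher. POLR1B, the second-largest subunit and part of the catalytic core, stood at 52.3, 51.9 and 54.2 CPM in the controls and 34.8, 31.7 and 36.9 CPM in the treated libraries. All treated values lay far below all controls, and the log2 change was -0.62 (SE 0.069; edgeR adjusted p = 7.97e-12). POLR1A, the largest subunit, stood at 145, 141 and 149 CPM and at 135, 145 and 138 CPM. Its groups overlapped and it was not called (log2 change -0.05, SE 0.050; edgeR adjusted p = 0.385). POLR1E, a subunit of the polymerase-specific heterodimer, stood at 83.5 to 94.6 CPM and 76.9 to 82.1 CPM, a log2 change of -0.17 (SE 0.057).

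POLR1C and POLR1D, which encode the pair of subunits shared with RNA polymerase III, were the 2 subunit genes that rose. POLR1D stood at 33.1, 36.9 and 36.9 CPM in controls and 46.4, 37.7 and 41.8 CPM in treated libraries, a log2 change of 0.24 (SE 0.074). The lowest treated library was just above the highest control. POLR1C stood at 32.9, 33.4 and 29.4 CPM and 37.9, 35.6 and 34.9 CPM, a log2 change of 0.18 (SE 0.075; edgeR adjusted p = 0.0309). These small calls each depended on single libraries. The edgeR adjusted p of POLR1C was 0.224 without control replicate 3, 0.137 without treated replicate 1 and 0.0526 without treated replicate 2, and 0.0600 by DESeq2. That of POLR1D was 0.0941 without treated replicate 1, and that of POLR1E was 0.0770 without control replicate 1 and 0.0567 without treated replicate 3. POLR1E was not called with upper-quartile (log2 change -0.11) or total-count scaling (-0.04) either, nor POLR1C without a filter on low counts (edgeR adjusted p = 0.107). POLR1C also shared 18.2% of its exon bases with other genes.

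Among the 6 initiation factor genes, 4 fell (66.7%), 1 rose (16.7%) and 1 was not called. The shares among expressed coding genes were 42.5% lower and 31.8% higher. UBTF, the architectural factor that keeps ribosomal DNA open, stood at 174, 161 and 163 CPM in controls and 125, 119 and 127 CPM in treated libraries. The groups were widely separated, with a log2 change of -0.42 (SE 0.051; edgeR adjusted p = 6.06e-11). RRN3, which joins the polymerase to SL1 at the promoter, went the other way: 123, 111 and 125 CPM in controls and 154, 141 and 148 CPM in treated libraries. Its log2 change of 0.31 (SE 0.053; edgeR adjusted p = 7.78e-07) was the largest among the members that rose. RRN3 has 3 pseudogenes in the table that together held 5.83% as many counts as RRN3, and reads could be split between these copies.

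SL1 is made of the TATA-binding protein and the TAF1 subunits. TAF1D stood at 87.5, 87.5 and 92.7 CPM in controls and 63.0, 51.0 and 54.1 CPM in treated libraries, among the largest falls of the set (log2 change -0.67, SE 0.062; edgeR adjusted p = 9.78e-15). Its treated values were all under 75% of its control mean. TAF1C had 69.7 to 76.6 CPM and 53.2 to 64.8 CPM (log2 change -0.34), and TAF1B 35.4 to 39.2 CPM and 29.5 to 32.2 CPM (log2 change -0.26). TAF1B was not called with total-count scaling (log2 change -0.13). TAF1A, the least abundant, had 13.6 ± 0.47 and 13.6 ± 1.12 CPM, with a log2 change of 0.00 (SE 0.11). Of the exon bases of TAF1D, 17.3% overlap another gene, mainly CEP295, and the libraries carry no strand information.

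All 6 genes of abundant nucleolar regulators fell, where 42.5% of expressed coding genes were called lower. NPM1, nucleophosmin, a histone and ribosome chaperone, stood at 1186, 1182 and 1177 CPM in controls and 911, 859 and 859 CPM in treated libraries (log2 change -0.43, SE 0.044; edgeR adjusted p = 3.30e-13). NCL, nucleolin, an rRNA-binding protein, stood at 1092, 1094 and 1164 CPM and 886, 813 and 805 CPM (log2 change -0.42, SE 0.046). DDX21, an RNA helicase, stood at 444, 442 and 461 CPM and 332, 328 and 330.1 CPM (log2 change -0.44, SE 0.045). In all 3 the treated libraries stood at a like share of the control mean, at 74.1%, 74.7% and 73.6%. NPM1 has 49 pseudogenes in the table, which held 2.33% as many counts as NPM1.

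The other 3 regulators fell less. NOLC1, a chaperone of snoRNPs, stood at 229, 232 and 248 CPM and 218, 208 and 214 CPM (log2 change -0.15, SE 0.048). GNL3, the GTPase nucleostemin, stood at 104 ± 3.63 and 93.7 ± 0.718 CPM (log2 change -0.15, SE 0.053). MYBBP1A stood at 170.4 ± 7.07 and 154 ± 9.31 CPM (log2 change -0.15, SE 0.051), and its groups overlapped. Without treated replicate 1 MYBBP1A was not called (edgeR adjusted p = 0.0974). None of NOLC1, GNL3 and MYBBP1A was called with upper-quartile or total-count scaling, where their log2 changes lay between -0.10 and -0.02.

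Compared per kilobase of exon, the levels of the set spanned a wide range. NPM1 was highest in the controls at 309 ± 1.20 CPM per kb, followed by NCL at 161 ± 5.91 and DDX21 at 89.4 ± 2.11 CPM per kb. NOLC1 (59.5 ± 2.60), FBL (56.3 ± 2.15) and NOP56 (53.8 ± 2.42 CPM per kb) came next and lay close together relative to their SDs. Apart from NOP2, POLR1D was lowest at 3.18 ± 0.195 CPM per kb. This rank depends on the exon length used, 11210 bases for POLR1D. Without division by length POLR1D stood at 35.6 CPM, and TAF1A was lowest besides NOP2 at 13.6 CPM. Genes called lower were found along the range, from UTP15 at 7.18 to NPM1.

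**Figure D3:**
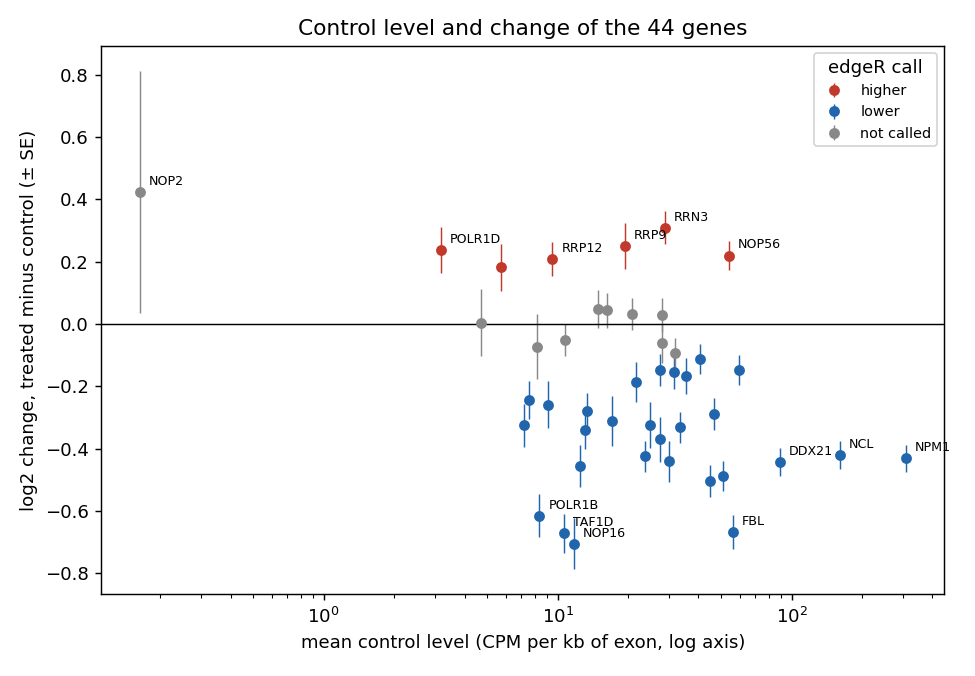
Log2 change (treated minus control, points, with SE bars) against the mean control level in CPM per kb of exon (log axis) for the 44 genes, coloured by the edgeR call. The 3 most abundant genes, NPM1, NCL and DDX21, lie together between -0.44 and -0.42, while the largest falls (NOP16, TAF1D, FBL and POLR1B) occur at levels from 8.35 to 56.3 CPM per kb.

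Of the 4 members that belong to box C/D snoRNPs, which methylate rRNA, 2 fell (50%) and 2 rose (50%). Among expressed coding genes 42.5% were called lower and 31.8% higher. FBL, fibrillarin, the methyltransferase, stood at 128, 121 and 119 CPM in controls and 81.3, 75.7 and 73.8 CPM in treated libraries. With a log2 change of -0.67 (SE 0.055) it had the smallest adjusted p of the 44 genes (edgeR adjusted p = 7.41e-17). NOP58, one of the core scaffold pair, stood at 150.0, 159.7 and 151 CPM and 132, 125 and 119.8 CPM (log2 change -0.29, SE 0.051). NOP56, the other of that pair, stood at 302, 276 and 293 CPM and 356, 325 and 333 CPM, higher in each treated library than in any control (log2 change 0.22, SE 0.048; edgeR adjusted p = 5.52e-05). RRP9, which is specific to the U3 snoRNP, rose too, from 30.5 ± 1.33 to 36.3 ± 0.550 CPM (log2 change 0.25, SE 0.074). SNU13, the other core gene of this particle and not one of the 44, fell as well (log2 change -0.76), so of the core genes FBL, NOP58 and SNU13 were lower and NOP56 higher.

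In the box H/ACA snoRNP, which isomerises uridines to pseudouridine, 2 of 3 genes fell (66.7%) and none rose. Expressed coding genes were called lower in 42.5% and higher in 31.8%. DKC1, dyskerin, the pseudouridine synthase, stood at 210.1, 219 and 213 CPM in controls and 159, 152 and 147 CPM in treated libraries (log2 change -0.49, SE 0.049; edgeR adjusted p = 1.53e-13). NHP2 stood at 44.2, 40.8 and 39.0 CPM and between 30.4 and 33.5 CPM (log2 change -0.37, SE 0.073), and shared 27.4% of its exon bases with another gene, RMND5B. GAR1 stood at 14.5, 16.4 and 19.2 CPM and 17.6, 14.6 and 15.5 CPM, with overlapping groups and no call (log2 change -0.07, SE 0.10).

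Several members also carry snoRNA genes in their introns, so that one transcript yields a protein and guide RNAs. In GENCODE v29 (GRCh38), 7 of the 44 genes hold 30 snoRNA genes on their own strand, 16 of the box C/D and 10 of the box H/ACA kind by name. TAF1D holds 6 box H/ACA and 2 box C/D snoRNAs, NOP56 holds 4 box C/D and 1 box H/ACA, and the others are NCL, GNL3, NOP58, DKC1 and TSR1. Of these 7 hosts 6 fell and NOP56 rose, with a median log2 change of -0.33. Of the other 37 members 22 fell and 5 rose, with a median of -0.17. Among expressed coding genes 42.5% were called lower and 31.8% higher. The difference between hosts and other members was not tested. The snoRNA genes themselves had 0 to 43 counts each over all libraries, and poly(A) selection does not measure them. Shown are box C/D snoRNAs of NCL, a host that fell, and of NOP56, the host that rose, with the C box core TGATGA and the D box CTGA in capitals, as DNA letters 5′ to 3′. SNORD20 (chr2:231456444-231456523) and SNORD82 (chr2:231460371-231460440), both on the minus strand, lie in NCL, and SNORD57 (chr20:2656939-2657010) and SNORD110 (chr20:2654212-2654286), both on the plus strand, lie in NOP56.
SNORD20: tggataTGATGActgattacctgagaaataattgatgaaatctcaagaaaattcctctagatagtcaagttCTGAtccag
SNORD82: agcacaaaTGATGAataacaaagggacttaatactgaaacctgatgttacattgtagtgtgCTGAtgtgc
SNORD57: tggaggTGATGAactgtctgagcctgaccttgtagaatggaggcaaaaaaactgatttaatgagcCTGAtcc
SNORD110: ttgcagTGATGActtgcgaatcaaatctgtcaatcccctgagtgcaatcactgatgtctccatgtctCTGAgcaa
The letters show the guides that the proteins of the box C/D group bind, and no level of theirs is reported.

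Of the 2 enzymes that modify rRNA bases directly, NAT10, the cytidine acetyltransferase, fell. It stood at 55.8, 70.5 and 68.8 CPM in controls and 47.3, 48.1 and 47.0 CPM in treated libraries (log2 change -0.46, SE 0.067; edgeR adjusted p = 2.61e-08). Control replicate 1 was low among the controls and still above every treated library. NOP2, a cytosine methyltransferase, had only 20, 11 and 9 counts in controls and 24, 18 and 22 in treated libraries, and was not called (log2 change 0.42, SE 0.39). Of its exon bases, 53.3% lie in exons of another Ensembl gene, ENSG00000285238, which had 0 counts in every library. All exon bases of ENSG00000285238 (100%) are shared in turn, mainly with NOP2. How reads in the shared bases were counted is not stated, and its part in the low NOP2 count was not tested.

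The small-subunit processome is the large particle that forms on the nascent precursor. Of its 5 genes among the members 2 fell (40%), none rose and 3 were not called. For comparison, 42.5% of expressed coding genes were called lower. UTP20 stood at 132, 123 and 148 CPM in controls and 108, 111 and 114 CPM in treated libraries (log2 change -0.28, SE 0.055). UTP15 stood at 46.8, 43.4 and 46.1 CPM and 38.3, 35.8 and 34.7 CPM (log2 change -0.32, SE 0.070). Both sets of treated libraries were below all controls. UTP4 stood at 179.6, 180.2 and 179.9 CPM and 163, 174 and 168 CPM, with a log2 change of -0.09 (SE 0.049) and no call (edgeR adjusted p = 0.0890). NOP14 (98.4 ± 5.86 and 101 ± 2.37 CPM) and UTP14A (60.6 ± 2.09 and 62.7 ± 0.844 CPM) had overlapping groups and log2 changes of 0.03 and 0.05, and both were called higher with total-count scaling (0.16 and 0.18).

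Of 6 genes for late maturation and export of the small subunit, 4 fell (66.7%), 1 rose (16.7%) and 1 was not called. Among expressed coding genes 42.5% were called lower and 31.8% higher. NOB1, the endonuclease that makes the final cut of the small-subunit rRNA, stood at 64.3, 68.1 and 58.0 CPM in controls and 48.7, 44.3 and 47.2 CPM in treated libraries (log2 change -0.44, SE 0.065; edgeR adjusted p = 2.60e-08). On chromosome 16 NOB1 (69741867 to 69754940) lies 14915 bases from NQO1, which rose from 561 ± 18.0 to 2464 ± 39.1 CPM, so these neighbours moved in opposite directions; 20.2% of the exon bases of NOB1 overlap exons of other genes, mainly NQO1-DT. TSR1 stood at 184, 183 and 188 CPM and 149, 146 and 145 CPM (log2 change -0.33, SE 0.049), and shared 20.8% of its exon bases with other genes, mainly SRR.

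LTV1, a factor released late from the small subunit, stood at 31.5 ± 0.697 and 25.4 ± 1.89 CPM (log2 change -0.31, SE 0.080), with 34.8% of its exon bases shared. PNO1, the partner of NOB1, stood at 55.4 to 60.6 and 48.5 to 53.4 CPM (log2 change -0.19, SE 0.064), and was not called without treated replicate 3 (edgeR adjusted p = 0.0671), with upper-quartile factors (edgeR adjusted p = 0.0636) or with total-count scaling (log2 change -0.06). RRP12, an export factor, rose: 81.2, 78.2 and 83.8 CPM in controls and 94.1, 94.4 and 92.6 CPM in treated libraries (log2 change 0.21, SE 0.055). BYSL, bystin, had overlapping groups and was not called (63.1 ± 3.09 and 60.4 ± 4.07 CPM; log2 change -0.06).

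Of 7 genes for assembly of the large subunit, 5 fell (71.4%), none rose and 2 were not called. Expressed coding genes were called lower in 42.5% and higher in 31.8%. NOP16 had the largest fall of the 44 genes, from 35.0, 34.2 and 31.8 CPM in controls to 21.7, 19.4 and 20.8 CPM in treated libraries (log2 change -0.71, SE 0.082; edgeR adjusted p = 2.65e-11). It shared 20% of its exon bases with other genes, mainly ARL10. BOP1, PES1 and WDR12 form the PeBoW complex, which is needed for large-subunit rRNA processing. BOP1 stood at 176, 163 and 159 CPM and 115, 118 and 119 CPM (log2 change -0.50, SE 0.051), WDR12 at 65.5, 71.1 and 69.1 CPM and 61.4, 57.9 and 54.4 CPM (log2 change -0.24, SE 0.061). PES1 stood at 186, 183 and 185 CPM and 173, 172 and 168 CPM, a log2 change of -0.11 (SE 0.048; edgeR adjusted p = 0.0392). All 3 genes were lower in each treated library than in any control, by unequal amounts.

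Of the 34 calls, that of PES1 was lost under the most alternatives. Its edgeR adjusted p was 0.0599 without control replicate 1, 0.0505 without control replicate 3, 0.0545 without treated replicate 2 and 0.140 without treated replicate 3, and it was 0.0638 with a block for the replicate number, 0.0702 with a filter of 1 CPM and 0.300 with upper-quartile factors. With total-count scaling its direction turned (log2 change 0.02). WDR12 was not called with that scaling (log2 change -0.12). RRS1, which brings the small RNP of the large subunit into the particle, stood at 42.4, 39.8 and 44.2 CPM and 37.3, 32.8 and 30.9 CPM (log2 change -0.33, SE 0.074). RRP1B (120.3 ± 4.55 and 123 ± 3.68 CPM) and BRIX1 (81.4 ± 2.18 and 83.9 ± 3.89 CPM) had overlapping groups and log2 changes of 0.03 and 0.04; both were called higher with total-count scaling (0.16 and 0.17).

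The rest of the pathway was taken from 8 further lists with 173 genes in all, of which 74 fell, 39 rose and 60 were not called; their median log2 change was -0.10. The falls were 42.8% of these genes, close to the 42.5% of expressed coding genes called lower, and the rises 22.5%, against 31.8%. With total-count scaling 39 fell and 62 rose. Of the 8 lists, the 44 other processome and small-subunit factors had the highest share of falls (59.1%), with 26 lower and 10 higher and a median of -0.19. Its largest falls were in DDX10, a helicase (41.2 ± 2.12 to 26.3 ± 0.933 CPM, log2 change -0.65), and HEATR1, a processome scaffold (126 ± 10.9 to 81.2 ± 0.634 CPM, -0.64). Its largest rises were in RIOK3, a kinase of late small-subunit precursors (80.9 ± 4.22 to 157 ± 3.92 CPM, log2 change 0.95), and KRR1 (45.3 ± 4.24 to 66.6 ± 1.17 CPM, 0.56). HEATR1 shared 23.2% of its exon bases with other genes, mainly LGALS8, and KRR1 14.1%, mainly with GLIPR1.

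Of 46 other large-subunit factors 17 fell (37.0%) and 13 rose (28.3%), with a median log2 change of -0.03. Of expressed coding genes 42.5% were called lower and 31.8% higher. WDR18 fell most (47.2 ± 3.28 to 26.8 ± 1.47 CPM, log2 change -0.81), and then PPAN (-0.48), which shared 59.8% of its exon bases with another gene. ZNF622 (33.2 ± 0.520 to 55.2 ± 1.74 CPM, log2 change 0.73) and GNL2 (0.41) rose most. Of 11 other snoRNP proteins and assembly factors 4 fell (36.4%) and none rose. SNU13, a core box C/D protein like the pair NOP56 and NOP58, fell from 171 ± 7.23 to 101 ± 2.08 CPM (log2 change -0.76, SE 0.051), and RUVBL2, an ATPase of snoRNP assembly, by 0.66.

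Of 13 other subunits and cofactors of RNA polymerase I, 5 fell (38.5%) and 4 rose (30.8%). For comparison, 42.5% of expressed coding genes were called lower and 31.8% higher. CAVIN1, also called polymerase I and transcript release factor and a coat protein of caveolae, fell from 1799 ± 52.2 to 891 ± 23.4 CPM (log2 change -1.01), and POLR2E, a subunit shared by the nuclear polymerases, by 0.58. POLR2H (log2 change 0.50), likewise shared, and TCOF1, treacle (0.22), rose. Of 21 RNA polymerase III genes 6 fell (28.6%) and 4 rose (19.0%). POLR3B (57.4 ± 5.69 to 25.9 ± 1.52 CPM, log2 change -1.15) and POLR3G (-0.60) were lowest and POLR3A (0.45) and POLR3C (0.37) highest. Of 17 genes of the RNA exosome and rRNA trimming, 8 fell (47.1%) and 4 rose (23.5%). EXOSC7 (-0.62) and MTREX (-0.60) fell most, and DIS3 (0.39) and EXOSC4 (0.29) rose most, on the log2 scale. EXOSC4 shared 24.4% of its exon bases with other genes. Of 15 noncoding snoRNA host genes 5 fell (33.3%) and 3 rose (20%), where 31.2% of all tested genes were called lower and 32.3% higher. SNHG3 (-0.59) and SNHG16 (-0.45) were lowest and ZFAS1 (0.52) and SNHG32 (0.37) highest. ZFAS1 shared 46.9% and SNHG16 33.4% of their exon bases with other genes.

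The last list joins ribosome assembly to MDM2, a ubiquitin ligase that free RPL5 and RPL11 bind. RPL11 stood at 395, 419.6 and 403 CPM in controls and 401, 433 and 379.9 CPM in treated libraries and was not called, while RPL5 fell slightly (626 ± 21.5 to 571 ± 11.3 CPM, log2 change -0.13, SE 0.045). MDM2 rose from 74.9 ± 4.16 to 823 ± 40.4 CPM. MYC, which drives many genes of the pathway, fell from 76.1, 74.2 and 80.4 CPM to 41.8, 38.2 and 38.4 CPM (log2 change -0.96, SE 0.063). CDKN2A, whose alternative reading frame product ARF binds NPM1, fell from 335 ± 21.6 to 209 ± 5.19 CPM (log2 change -0.68); the counts do not separate its products.

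Other translation genes were counted the same way. For comparison, 42.5% of expressed coding genes were called lower and 31.8% higher. Of 81 tested cytosolic ribosomal protein genes 28 were lower (34.6%) and 18 higher, with a median log2 change of -0.02, and their summed level in treated libraries was 99.1% of control. Mitochondrial ribosomal protein genes were lower in 38 of 78 (48.7%) and higher in 16, with a median of -0.15. Cytosolic tRNA synthetase genes were lower in 8 of 20 and higher in 8, with a median of 0.02. The difference between the nucleolar genes and these lists was not tested, and the values stand side by side as a description.

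**Figure D4:**
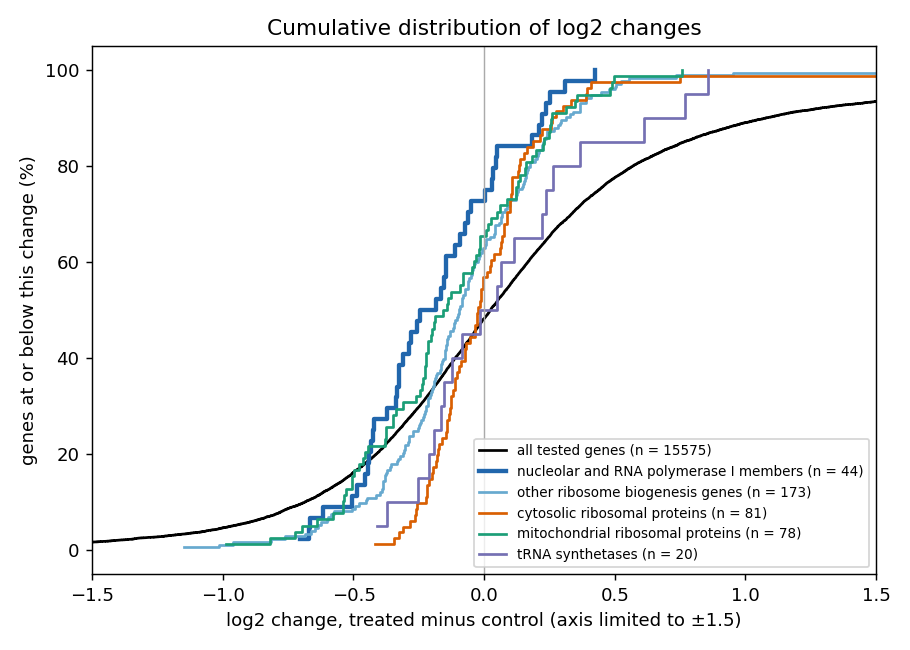
Share of genes (%, vertical axis) with a log2 change (treated minus control) at or below the value on the horizontal axis, which is limited to ±1.5, for the 44 nucleolar and RNA polymerase I genes, 173 other ribosome biogenesis genes, 3 other translation lists and all 15575 tested genes. The curve of the 44 genes crosses 50% at -0.21 and that of all tested genes at 0.02, so the curve of the 44 genes lies to the left at its middle.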

How the data were processed

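Unstranded TruSeq libraries were made from poly(A) RNA of AC16 cells, as the labels' protocols state. What the authors deposited is a single table of unnormalised counts, whole numbers for 58299 Ensembl identifiers by 6 libraries, with exon coordinates and lengths. Tools named in the submitters' processing notes are featureCounts, Subread, STAR and SAMtools, and the build is hg38; their versions and the annotation release are not given in the sources used here. Symbols were found for 57717 identifiers in a gene name table and for 462 more in GENCODE v29.

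The 3 control and 3 treated libraries were grouped by their titles and compared once, on the whole table. Genes were filtered with filterByExpr (minimum count 10), normalised by TMM and tested with edgeR 4.0.16 in R 4.3.3 (glmQLFit, glmQLFTest), with Benjamini-Hochberg adjustment over 15575 genes and a threshold of 0.05. The SE was taken as the absolute log2 change divided by √F. The script was tested on simulated data with known changes. Replicates differed by more than sampling noise (chi-square over degrees of freedom 2.84 to 3.77 in the 6 pairs). The depth, 17150259 to 20193957 counts, gave at least 9 counts per library for every member. Exon overlap came from the table's coordinates with bedtools 2.31.1; other steps used Python 3.11.15 and pandas 2.3.3. Alternatives were scaling by RLE, upper quartile or total counts, a filter of 1 CPM in 3 libraries or none, DESeq2 1.42.0, limma-voom (limma 3.58.1), a replicate block, each library left out, an adjusted p of 0.01, glmTreat against 1.5-fold, and members without over 50% exon overlap.

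The members and lists were chosen with earlier results of these data known. Named were all 44 members, the 2 called genes with the largest rise and fall of each further list (mean at least 5 CPM), the genes of the list on MDM2 (1 of them is not reported here), and NQO1, HMOX1 and CDKN1A.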

Additional observations from a re-analysis of the deposited data

How the results depend on the processing

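The count of members called lower (28) and higher (6) stayed within 1.5 times of these values under every alternative run except 2: with total-count scaling 10 were higher and 20 lower, and with glmTreat against 1.5-fold 0 were called, where all genes gave 1852 higher and 1141 lower. With each library left out in turn, 25 to 28 members were lower and 4 to 6 higher, and over all genes 4574 to 4735 were lower and 4709 to 4960 higher. The median log2 change of the members, -0.21, was -0.16 with upper-quartile factors, -0.09 (-0.0874) with total-count scaling, -0.23 without a filter, -0.24 without members of over 50% exon overlap (NOP2), and -0.25 to -0.20 with a library left out. The median of the members minus that of all tested genes was -0.24; a scaling cannot change it, but it was -0.74 without a filter, where 36005 genes had a median of 0.51, -0.21 with the 1 CPM filter, and -0.28 without control replicate 1. PES1 turned from -0.11 to 0.02 (0.0165) on the log2 scale with total-count scaling. For the other ribosome biogenesis genes, 39 higher and 74 lower became 62 and 39 with total-count scaling, and 3 and 6 with glmTreat. The replicate numbers did not pair the libraries (correlations of same-numbered deviations from -0.02 to -0.01); with a replicate block 27 members were lower and 6 higher, the median was -0.22, and over all genes 4761 were lower and 4892 higher. NOP2, at 9 to 24 counts per library, had an SE of 0.39, so changes of the size seen in the other members were not detectable at this depth.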
